A study of Mus musculus with 24 samples.

Results

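The miR-29 family was followed in the brain of newborn mice, by its mature miRNA entries in small RNA sequencing of 24 libraries. The members were chosen by name, as mmu-miR-29a-3p, mmu-miR-29b-3p, mmu-miR-29c-3p, mmu-miR-29a-5p and mmu-miR-29c-5p. Of these 5 names, 4 had a row among the 1531 mouse miRNAs of the count tables, and miR-29a-5p was not analysed here. The other arms of the family, miR-29b-1-5p and miR-29b-2-5p, also had rows and were described beside them, which gave 6 entries. Libraries came from the right cerebellum, striatum/thalamus and cortex of 8 CD1 pups of both sexes at postnatal day 9, so that each pup gave 1 library per region. In the 4 pups with hypoxic-ischemic brain injury (HIBI; pups 1, 4, 5 and 7), the right carotid artery was cauterized, and after 2 h of recovery the pups breathed 8% oxygen for 30 min. The 4 sham pups (2, 3, 6 and 8) had the operation without closure of the artery and stayed in room air. Tissue was taken 30 min after the injury. All libraries were made from whole tissue, so that fewer cells of a type and less miRNA per cell cannot be told apart. A library held between 1254185 and 3406624 reads on mouse miRNAs. Levels are given as CPM, the reads of a miRNA scaled to a common library total after TMM normalization over all libraries, with SD over the 4 pups of a group.

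A miRNA hairpin gives a 3p and a 5p arm, of which one (the guide strand) is usually kept in the silencing complex, where the seed near its 5′ end pairs with target mRNAs. In the miR-29 family the 3p arms are the usual guides. The family is known to repress collagens and other matrix genes, DNA methyltransferases and pro-apoptotic BH3-only genes, and to rise as neurons mature after birth. Its hairpins lie in pairs, Mir29a with Mir29b-1 and Mir29b-2 with Mir29c, and Mir29b-1 and Mir29b-2 give the same 3p arm.

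The mature sequences, from RefSeq on GRCm38.p6, are shown because the 3p arms share a seed and differ by few bases, which bears on how their reads could be told apart. They run 5′ to 3′ and the capitals mark the seed, bases 2 to 8.
miR-29a-3p: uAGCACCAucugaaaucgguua
miR-29b-3p: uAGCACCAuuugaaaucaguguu
miR-29c-3p: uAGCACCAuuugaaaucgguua
miR-29c-5p: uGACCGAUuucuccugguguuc
miR-29b-1-5p: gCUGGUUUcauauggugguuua
miR-29b-2-5p: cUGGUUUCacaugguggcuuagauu

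Mature miR-29a-3p lies at chr6:31062673-31062694 on the minus strand, and miR-29b-3p at chr6:31063025-31063047 on the minus strand and at chr1:195037091-195037113 on the plus strand. Mature miR-29c-3p lies at chr1:195037600-195037621 on the plus strand. The hairpins of Mir29b-2 and Mir29c were 426 bases apart, within an exon of the non-coding gene A330023F24Rik on the same strand, and within an exon of Cd46 on the opposite strand. Those of Mir29a and Mir29b-1 were 275 bases apart, and the end of Mir29b-1 touched the long non-coding RNA gene Gm27019. Of 1679 mature mouse names in the sequence table, the 3 guide strands alone had this seed. Counted from 1 at the 5′ end, miR-29c-3p differed from miR-29a-3p by C10U only, with 21 of 22 bases identical. From miR-29a-3p to miR-29b-3p the changes over the same 22 bases were C10U, G18A, U21G and A22U. MiR-29c-3p and miR-29b-3p shared their first 17 bases. No mature name outside the family came within 3 mismatches over the first 18 bases of a guide strand. How reads with several matches were assigned is not given in the sources used here, so the division of reads among the 3 guide strands is uncertain.

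Nearly all guide-strand reads were miR-29a-3p. It held 49776 of the 50323 reads on the 3p arms over the 24 libraries (98.9%), against 405 reads of miR-29c-3p (0.805%) and 142 of miR-29b-3p (0.282%). The share of miR-29a-3p ran from 97.8% in the cortex library of HIBI pup 1 to 99.8% in the cerebellum library of sham pup 2. Averaged over the libraries without TMM, miR-29a-3p had 894 CPM. By mean CPM after TMM, which gave the ranks, it was 93 of the 1531 mouse miRNAs. The most abundant of the other entries was not one of the usual guide strands: miR-29b-2-5p, the opposite arm of the Mir29b-2 hairpin, had 1677 reads, an average of 30.7 CPM and rank 316. Which arm was kept in the silencing complex was not measured. MiR-29c-3p averaged 7.49 CPM, miR-29b-3p 2.65 CPM, miR-29c-5p 1.36 CPM and miR-29b-1-5p 0.55 CPM. No read was counted for miR-29b-3p in 3 libraries, for miR-29c-5p in 8 and for miR-29b-1-5p in 14. A count of 0 allows up to 3 reads, which is 0.881 CPM in the deepest library and 2.39 CPM in the shallowest, by counting error alone.

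Within the Mir29b-2 hairpin, the 5p arm was above the 3p arm in 24 of 24 libraries, although reads of miR-29b-3p could also come from Mir29b-1. Within the Mir29c hairpin the order was the other way, with miR-29c-3p above miR-29c-5p in 23 of 24 libraries. MiR-29c-3p was above miR-29b-3p in 21 of 24, and miR-29b-2-5p was above miR-29c-3p in 23 of 24. The mature arms have 22 to 25 bases, so CPM was not divided by length. How efficiently the library kit captured each sequence was not measured.

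**Figure D1:**
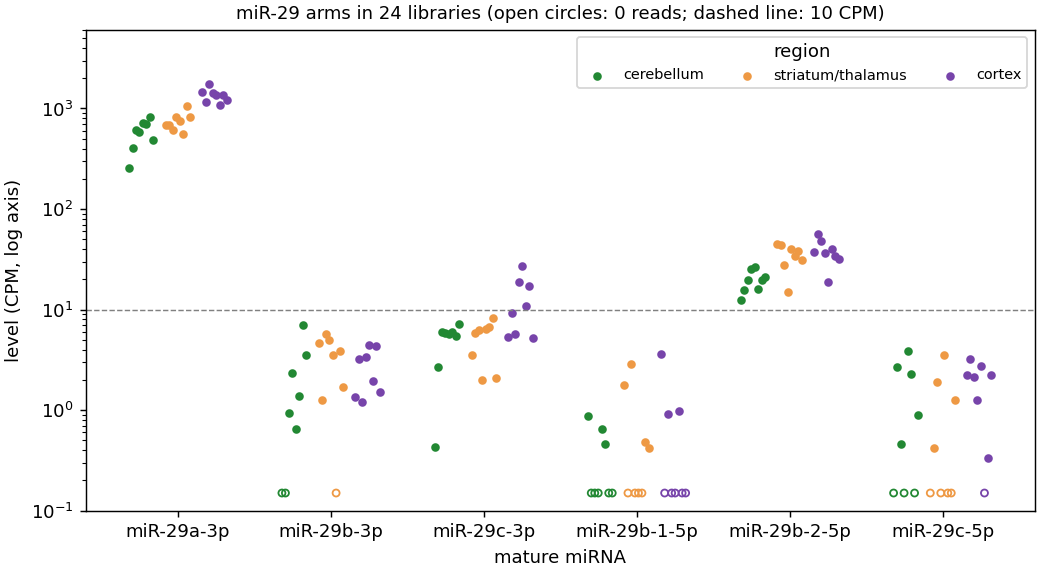
Level of each miR-29 arm in the 24 libraries, in CPM after TMM normalization on a log axis, with 1 point per library coloured by region. Open circles at the bottom are libraries with 0 reads and the dashed line marks 10 CPM; miR-29a-3p lies far above the other arms, and miR-29b-2-5p above miR-29b-3p and miR-29b-1-5p.

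MiR-29a-3p rose from the cerebellum to the cortex. In sham cerebellum the 4 libraries had 259, 401, 610 and 578 CPM in pups 2, 3, 6 and 8 (462 ± 164, SD, n = 4). In the striatum/thalamus of the same pups it had 688, 688, 613 and 820 CPM (702 ± 86.2). In their cortex it had 1454, 1166, 1733 and 1435 CPM (1447 ± 232). The cortex libraries lay above all others, and each sham pup had its highest value in the cortex. The striatum/thalamus libraries lay above the cerebellum libraries, although pup 6 had nearly the same level in both.

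These regional differences were tested in 1 model of all 24 libraries with edgeR's quasi-likelihood test, and a miRNA was counted with a Benjamini-Hochberg adjusted p under 0.05 over the 435 miRNAs with an average above 10 CPM. Of the 4 members with a row only miR-29a-3p passed that minimum over the 24 libraries, and so did miR-29b-2-5p beside them. The 3 contrasts between regions share libraries and are not independent of each other. In sham pups, miR-29a-3p was higher in the cortex than in the cerebellum by 1.65 on the log2 scale (SE 0.24, adjusted p = 3.32e-06 by edgeR's quasi-likelihood test). The ratio within a pup ran from 2.48 to 5.62, higher in the cortex in 4 of 4 pups. Of all miRNAs tested 58.6% differed in this contrast and 29.9% were higher in the cortex, so a call alone was common. By the size of the increase miR-29a-3p ranked 22 of 435. It was higher in the cortex than in the striatum/thalamus by 1.04 (SE 0.23, adjusted p = 0.00143, edgeR), again in 4 of 4 pups, where 33.1% of miRNAs differed and 17.0% were higher. The difference between striatum/thalamus and cerebellum was 0.60 (SE 0.23, adjusted p = 0.0258, edgeR), where 62.8% differed and 31.7% were higher. This smallest step was lost without pup 2 (0.41, adjusted p = 0.156), pup 3 (0.63, adjusted p = 0.0660) or pup 8 (0.63, adjusted p = 0.0671), and also when the minimum was lowered to 1 CPM (0.57, adjusted p = 0.0697) or left out (0.56, adjusted p = 0.125).

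In HIBI pups the order of the group means was the same. In HIBI cerebellum miR-29a-3p had 710, 706, 819 and 492 CPM in pups 1, 4, 5 and 7 (682 ± 137). In their striatum/thalamus it had 751, 562, 1060 and 814 CPM (797 ± 206). In their cortex it had 1374, 1082, 1364 and 1219 CPM (1260 ± 138). The cortex libraries again lay above all others, while those of the cerebellum and striatum/thalamus overlapped. The cortex exceeded the cerebellum by 0.89 (SE 0.23, adjusted p = 0.00398, edgeR), in 4 of 4 pups and by 1.53 to 2.48 times, where 36.1% of miRNAs differed and 16.3% were higher. It exceeded the striatum/thalamus by 0.66 (SE 0.23, adjusted p = 0.0277, edgeR), in 4 of 4 pups, where 37.9% differed and 16.8% were higher. That second call was lost with scaling by library size only (0.62, adjusted p = 0.0704), and without pup 1 (0.64, adjusted p = 0.0878), pup 4 (0.59, adjusted p = 0.108) or pup 7 (0.68, adjusted p = 0.0741). Between striatum/thalamus and cerebellum the difference in HIBI pups was 0.23 (SE 0.23, adjusted p = 0.428, edgeR), higher in 3 of 4 pups, where 55.4% of miRNAs differed and 28.3% were higher. Whether the step from cerebellum to cortex by itself differed between sham and HIBI pups was not tested.

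**Figure D2:**
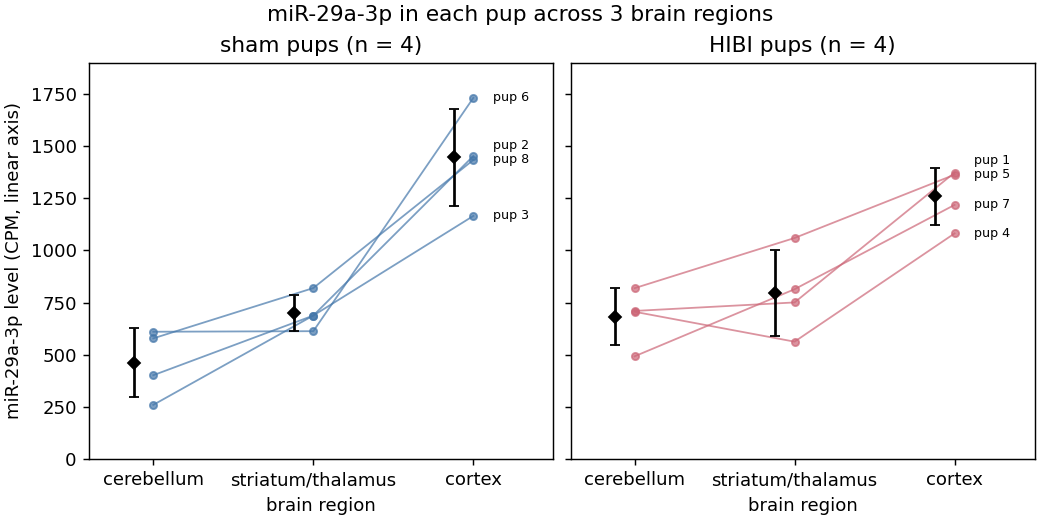
MiR-29a-3p level in CPM (linear axis) in the 3 regions, with 1 line per pup, sham at left and HIBI at right, and black diamonds with bars for the mean ± SD of 4 pups. In every pup the cortex is highest, and the sham cerebellum has the lowest mean (462 CPM).

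MiR-29b-2-5p, which is not among the usual guide strands, was also lowest in the cerebellum. Sham pups 2, 3, 6 and 8 had 12.6, 15.6, 19.5 and 25.1 CPM there (18.2 ± 5.41), 44.6, 44.3, 27.7 and 14.9 CPM in the striatum/thalamus (32.9 ± 14.4), and 37.8, 56.8, 48.4 and 36.4 CPM in the cortex (44.8 ± 9.60). The sham cortex and cerebellum libraries did not overlap, and the striatum/thalamus libraries overlapped both. The difference between sham cortex and cerebellum was 1.30 (SE 0.32, adjusted p = 0.00175, edgeR). Between sham striatum/thalamus and cerebellum it was 0.85 (SE 0.32, adjusted p = 0.0256, edgeR), higher in 3 of 4 pups, and with the pup as a block 0.78 (adjusted p = 0.0636), so that the call was lost. Without pup 2 it was 0.53 (adjusted p = 0.241) and without pup 3 it was 0.68 (adjusted p = 0.131), and with no CPM minimum it was 0.83 (adjusted p = 0.153). Cortex and striatum/thalamus differed by 0.45 in sham pups (SE 0.32, adjusted p = 0.298, edgeR), by 0.22 without pup 8 and by 0.70 without pup 2.

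In HIBI pups 1, 4, 5 and 7, miR-29b-2-5p had 26.4, 15.97, 19.8 and 21.0 CPM in the cerebellum (20.8 ± 4.29), 39.8, 33.9, 38.4 and 31.2 CPM in the striatum/thalamus (35.8 ± 3.95), and 18.9, 39.9, 33.9 and 32.0 CPM in the cortex (31.2 ± 8.87). Here the striatum/thalamus and cerebellum libraries did not overlap, and the cortex library of pup 1 lay within the cerebellum range. The difference between striatum/thalamus and cerebellum was 0.79 (SE 0.32, adjusted p = 0.0423, edgeR) and was not counted with the pup as a block (0.79, adjusted p = 0.0632), nor in 10 of the other alternatives, among them each of the 3 other scalings and the omission of pup 1, 4, 5, 6 or 7. That between cortex and cerebellum was 0.59 (SE 0.32, adjusted p = 0.151, edgeR), and that between cortex and striatum/thalamus was -0.20 (SE 0.32, adjusted p = 0.660, edgeR).

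The less abundant guide strands could be compared only at a lower minimum. MiR-29c-3p had 3.76 ± 2.70 CPM in sham cerebellum, 4.39 ± 2.00 in sham striatum/thalamus and 9.81 ± 6.27 in sham cortex (n = 4 each). The reads behind the sham cortex mean were 12, 29, 19 and 45 in pups 2, 3, 6 and 8, and those of the cerebellum 1, 5, 13 and 15. The sham cortex and cerebellum libraries of miR-29c-3p overlapped. Among 727 miRNAs with an average above 1 CPM, its difference between sham cortex and cerebellum was 1.39 (SE 0.60, adjusted p = 0.0710, edgeR's quasi-likelihood test) and that between HIBI cortex and striatum/thalamus was 1.43 (SE 0.59, adjusted p = 0.0871). MiR-29b-3p was highest in sham striatum/thalamus, with 8, 3, 12 and 10 reads (4.16 ± 1.98 CPM), against 0, 0, 2 and 6 reads in the cerebellum (0.820 ± 1.11 CPM) and 3, 10, 4 and 8 in the cortex (2.28 ± 1.15 CPM). Its difference between sham striatum/thalamus and cerebellum was 2.22 (SE 0.97, adjusted p = 0.0683, edgeR). With this minimum, no difference of miR-29b-3p, miR-29c-3p or miR-29c-5p between regions had an adjusted p under 0.05. Of all 727 miRNAs, 263 differed between sham cortex and cerebellum, 299 between sham striatum/thalamus and cerebellum, and 134 between sham cortex and striatum/thalamus. In HIBI pups 155 differed between cortex and cerebellum.

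**Figure D3:**
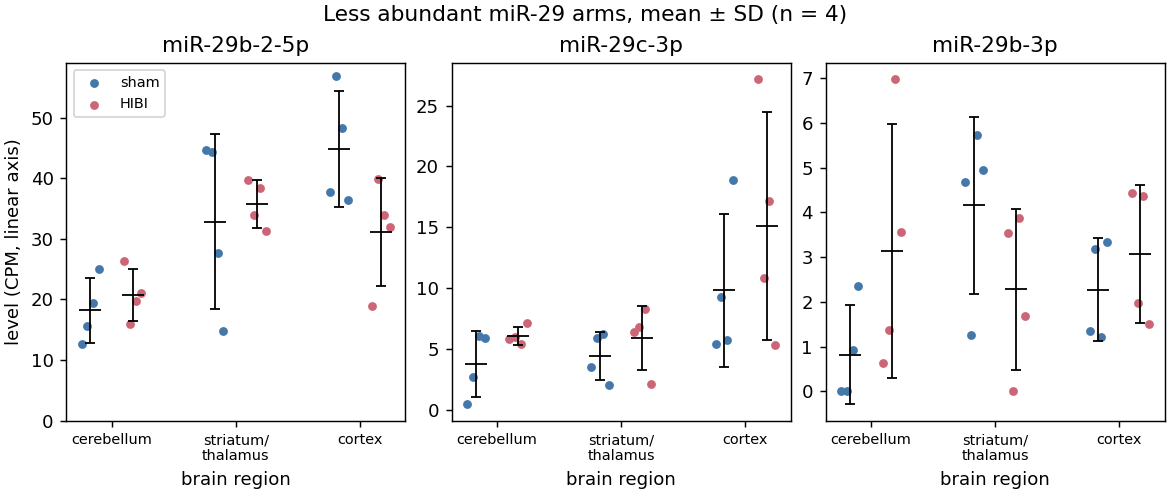
Levels of miR-29b-2-5p, miR-29c-3p and miR-29b-3p in CPM (linear axes, each panel with its own range) by region, with 1 point per pup for sham (blue) and HIBI (red), and black bars for the mean ± SD of 4 pups. Sham and HIBI points overlap in every region and panel.

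Each region was then compared between HIBI and sham in its own 8 libraries, with the study's criteria (fold change over 1.5, unadjusted p under 0.05). MiR-29a-3p was tested in each region and miR-29c-3p in the cortex, while miR-29b-3p and miR-29c-5p did not reach the minimum of 10 CPM in any region. Neither tested member met the criteria, nor did miR-29b-2-5p, while of all miRNAs tested 7.83% did in cerebellum (34 of 434), 2.75% in striatum/thalamus (12 of 436) and 3.41% in cortex (14 of 410). Under edgeR's quasi-likelihood test none of the tested family entries had an unadjusted p under 0.05, and none did under DESeq2's Wald test, edgeR's likelihood ratio test or edgeR's exact test. The two-sided exact permutation test of 4 against 4 pups has 70 arrangements and cannot go below p = 0.0286.

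The injury difference nearest to the criteria was that of miR-29a-3p in the cerebellum, the region outside the territory of the closed artery. Its level was 682 ± 137 CPM in HIBI and 462 ± 164 CPM in sham pups, and 3 of 4 HIBI libraries lay above all sham libraries, with pup 7 within the sham range. The fitted difference was 0.58 on the log2 scale (SE 0.29, unadjusted p = 0.0655, adjusted p = 0.432, edgeR), and the exact permutation test gave p = 0.143. In the striatum/thalamus it was 0.10 (SE 0.23, unadjusted p = 0.660, edgeR; exact permutation p = 0.514), and in the cortex -0.21 (SE 0.15, unadjusted p = 0.187, edgeR; exact permutation p = 0.200), or -0.0965 without pup 6. In the cerebellum miR-29a-3p met the criteria with scaling by library size only (0.73, unadjusted p = 0.0420), which moved the median of all miRNAs there by 0.16, with an average above 1 CPM (0.59, unadjusted p = 0.0463), and without pup 6 (0.74, unadjusted p = 0.0252) or pup 7 (0.71, unadjusted p = 0.0396). Without pup 2, the sham pup with the lowest level, it was 0.36 (unadjusted p = 0.159).

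MiR-29b-2-5p had log2 differences between HIBI and sham of 0.22 (cerebellum), 0.04 (striatum/thalamus) and -0.51 (cortex) (SE 0.34, 0.37 and 0.28, edgeR). In the cortex its unadjusted p was 0.0946 and the exact permutation p was 0.0857. Its 4 HIBI cortex libraries all lay below the sham mean of 44.8 CPM, and 1 of them overlapped the sham range. Without pup 4 the difference there was -0.68 (unadjusted p = 0.0404, edgeR) and met the criteria, while it was -0.32 without pup 1 (unadjusted p = 0.238) and -0.36 without pup 3 (unadjusted p = 0.251). MiR-29c-3p passed the minimum of 10 CPM in the cortex alone, where it had 49, 22, 51 and 14 reads in HIBI pups 1, 4, 5 and 7 (15.1 ± 9.39 CPM) and differed from sham by 0.60 (SE 0.53, unadjusted p = 0.274, edgeR; exact permutation p = 0.429). Without sham pup 8 this was 1.14 (unadjusted p = 0.0488, edgeR) and met the criteria, and without HIBI pup 1 it was 0.20 (unadjusted p = 0.708). For miR-29b-3p the exact permutation p was 0.143 for the cerebellum, 0.229 for striatum/thalamus and 0.486 for cortex, and for miR-29c-5p it was 0.4, 0.714 and 0.314.

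The study set the regions with ischemia against the cerebellum, so the injury effect was also compared between them. The mean injury effect of striatum/thalamus and cortex minus that of the cerebellum was -0.57 for miR-29a-3p (SE 0.28, unadjusted p = 0.0542, adjusted p = 0.310, edgeR) and -0.38 for miR-29b-2-5p (SE 0.39, adjusted p = 0.613). With edgeR 0 of the 435 miRNAs passed this test (0.00%), 70 had an unadjusted p under 0.05, and 0 passed with DESeq2's Wald test or edgeR's likelihood ratio test. For miR-29a-3p the unadjusted p was 0.0334 with DESeq2's Wald test and 0.0237 with the pup as a block (adjusted p = 0.214 and 0.171).

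**Figure D4:**
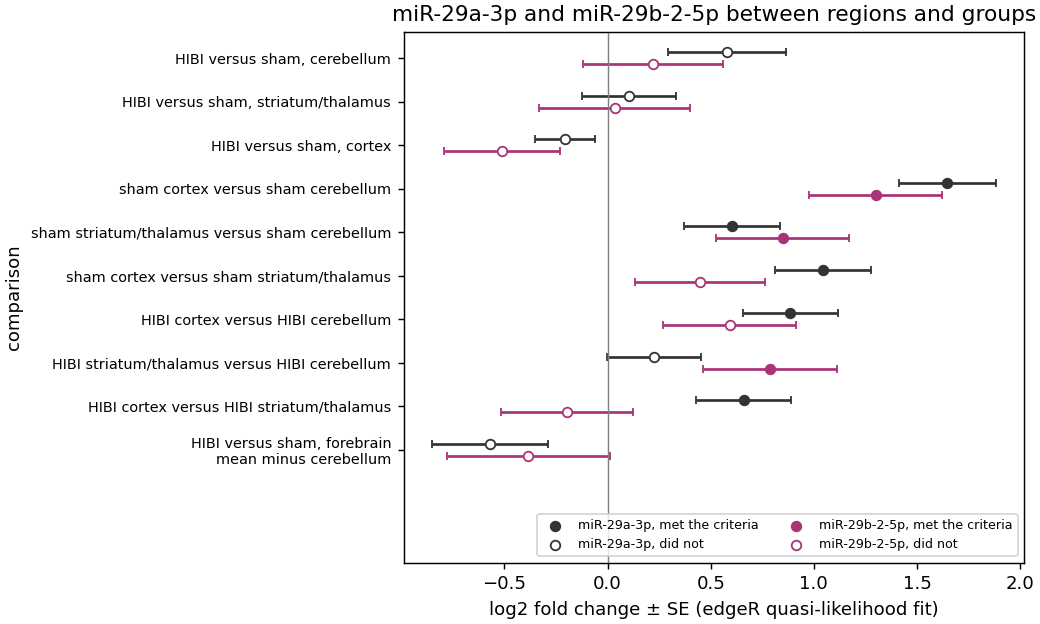
Log2 fold change ± SE of miR-29a-3p (black) and miR-29b-2-5p (purple) in each comparison, from edgeR's quasi-likelihood fit. Filled points met the criteria of their comparison (adjusted p under 0.05 between regions, fold change over 1.5 with unadjusted p under 0.05 for HIBI against sham); all injury contrasts are open, and the sham cortex to cerebellum difference of miR-29a-3p (1.65) is the largest.

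The make-up of the family was compared within libraries, as the log2 ratio of 2 entries with 0.5 added to each count. This ratio does not depend on the scaling, but at 0 or few reads the added 0.5 makes it depend on library depth. The ratio of miR-29b-3p to miR-29a-3p, of miR-29c-3p to miR-29a-3p and of miR-29c-5p to miR-29c-3p was compared between regions within the 8 pups and between HIBI and sham, 9 comparisons each. None of either 9 had an unadjusted or adjusted p under 0.05 in the exact permutation tests (smallest adjusted p = 0.784 and 0.566), nor did any without the pairing. The regional comparisons pooled the 4 sham and 4 HIBI pups, which were not tested apart. For miR-29b-3p to miR-29a-3p the mean log2 ratio was -9.41 in sham cerebellum and -7.49 in sham striatum/thalamus. In HIBI pups it was -8.04 and -8.76, the opposite order. The pooled striatum/thalamus minus cerebellum difference of 0.60 (exact permutation p = 0.398) joined these opposite orders. The ratio of miR-29c-3p to miR-29a-3p was -6.97 on the log2 scale in cortex, -7.24 in striatum/thalamus and -6.98 in cerebellum. Cortex minus cerebellum was 0.01 (SD of the within-pup differences 1.10, higher in the cortex in 6 of 8 pups, exact permutation p = 0.992). The SD of more than 1 on the log2 scale shows how wide this comparison was at these read counts. In pooled reads, miR-29c-3p was 1.12% of the 3p reads in HIBI cortex (136 of 12142, exact 95% interval 0.941 to 1.32) and 0.649% in sham cortex (105 of 16179, 0.531 to 0.785). These intervals cover counting error only, and over pups the log2 ratio differed by 0.76 (exact permutation p = 0.257, adjusted p = 0.566).

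Across the 24 libraries, which share regions and pups, the levels of the family were compared by the Pearson correlation of log2(CPM + 1), as a description. MiR-29a-3p and miR-29c-3p, from different hairpin pairs, had r = 0.65, and r = 0.41 after the mean of each region was subtracted. MiR-29a-3p and miR-29b-3p had 0.43 and 0.47. MiR-29b-2-5p and miR-29c-3p, from neighbouring hairpins, had 0.38 and 0.17. The miRNAs outside the family most like miR-29a-3p were miR-411-5p (r = 0.92), miR-300-3p (0.92) and miR-708-3p (0.91). MiR-411-5p had 722 CPM in sham cerebellum, 1150 in sham striatum/thalamus and 1631 in sham cortex. After subtraction of the region means they were miR-134-5p (0.83), miR-212-5p (0.83) and miR-148a-3p (0.80). Those most like miR-29c-3p were miR-138-5p (0.71), miR-154-3p (0.70) and miR-3068-3p (0.70), and after subtraction miR-376a-5p (0.56), miR-135a-1-3p (0.55) and miR-136-3p (0.53). For miR-29b-3p they were miR-592-5p (0.76), miR-376a-3p (0.74) and miR-598-3p (0.72), which also led after subtraction. Of these 15 miRNAs, 14 had a position in RefSeq and 8 of them lay on chromosome 12, where 75 of 371 tested miRNAs with a position lie (20.2%). Most of the 8, such as miR-411-5p, belong to the imprinted cluster there, whose miRNAs are made together, so these were not independent picks.

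The regional order was set beside lists of other brain miRNAs. Of 8 miRNAs of postnatal neuronal maturation, 4 were higher and none lower in sham cortex than in sham cerebellum (median log2 difference 0.76, against -0.11 for all miRNAs tested), by edgeR's quasi-likelihood test, where 29.9% of all were higher and 28.7% lower. MiR-137-3p, which acts in synaptic and neuronal differentiation, differed by 3.83 (SE 0.58, adjusted p = 6.90e-06, edgeR), the neuronal miR-128-3p by 1.42 (SE 0.23, adjusted p = 1.85e-05), the synaptic miR-138-5p by 1.33 (SE 0.23, adjusted p = 4.89e-05) and the activity-regulated miR-132-3p by 1.32 (SE 0.17, adjusted p = 1.01e-06). MiR-124-3p and miR-9-5p, abundant in the whole brain, had 0.20 and -0.19 and did not pass. MiR-26a-5p and miR-26b-5p had -0.28 and -0.60 and did not pass either. Between sham cortex and striatum/thalamus 6 of the 8 were higher and none lower, where 17.0% of all were higher. Between sham striatum/thalamus and cerebellum 2 were higher and 3 lower (miR-9-5p, miR-26a-5p and miR-26b-5p), near the shares of all miRNAs (31.7% higher and 31.0% lower).

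Of 8 miRNAs of proliferating progenitors, from the clusters of miR-17 and miR-106b, none was higher and 7 were lower in sham cortex than in sham cerebellum (median -1.74), where 28.7% of all miRNAs were lower. All 8 were lower in the striatum/thalamus than in the cerebellum (median -3.02), where 31.0% of all were lower. Granule cell precursors still divide in the cerebellum at this age. The summed level of the list was 10478 ± 1371 CPM in sham cerebellum, 1584 ± 371 in striatum/thalamus and 2598 ± 208 in cortex. It was highest in the cerebellum, where miR-29a-3p was lowest, but between cortex and striatum/thalamus both were higher in the cortex. There 6 of the 8 were higher and none lower (median 1.02), where 17.0% of all were higher. Its part in the regional levels of miR-29a-3p was not tested.

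Marker lists of cell types were read in the same contrast. Of 29 listed markers 22 were tested, and 3 were higher and 10 lower in sham cortex than in sham cerebellum (59.1% differed, against 58.6% of all miRNAs, of which 29.9% were higher and 28.7% lower), so that differing by region was as common among the markers as among all. The 4 neuronal miRNAs, led by miR-128-3p and all also on the maturation list above, summed to 69114 ± 14824 CPM in sham cerebellum and 132511 ± 7562 in sham cortex, with the same 3 of 4 higher in the cortex. Both oligodendrocyte miRNAs with a row (of 3 listed), led by miR-219a-2-3p, were lower in the cortex, with sums of 6257 ± 768 and 1521 ± 375 CPM. The choroid plexus and ciliated cell list, led by miR-204-5p, summed to 5209 ± 3107 CPM in sham cerebellum and 2184 ± 243 in sham cortex, with 2 of the 3 tested of 4 lower. The muscle list, led by miR-206-3p, fell from 519 ± 65.6 to 46.2 ± 14.8 CPM, with both tested of 3 lower. Of 5 mural and mesenchymal miRNAs, led by miR-143-3p, 2 were lower (3353 ± 618 and 3008 ± 536 CPM), of 5 myeloid miRNAs 1 of 3 tested was lower (563 ± 145 and 666 ± 64.5 CPM, led by miR-146a-5p), and of 3 erythrocyte miRNAs 1 of 2 tested was lower (1124 ± 270 and 592 ± 103 CPM, led by miR-486a-5p). The endothelial miR-126a-3p did not pass the test (list sums 2950 ± 927 and 3206 ± 433 CPM). No listed marker with a row was at 0 in every library. The part of these cell types in the regional levels of miR-29a-3p was not tested.

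Between HIBI and sham cerebellum, where miR-29a-3p differed by 0.58, 3 of the 23 markers tested met the criteria, against 7.83% of all miRNAs. This small count is no result about the markers, and their values are given as measured. The erythrocyte miR-486a-5p was lower in HIBI by 0.86 on the log2 scale (log2 fold change -0.86, unadjusted p = 0.00817, adjusted p = 0.432, edgeR), with list sums of 1124 ± 270 CPM in sham and 687 ± 89.2 in HIBI pups. MiR-137-3p was higher by 1.77 (unadjusted p = 0.0268) and the muscle miR-1a-3p by 1.05 (unadjusted p = 0.0496). The other members of their lists did not meet the criteria. The neuronal list summed to 69114 ± 14824 CPM in sham and 62608 ± 8219 in HIBI cerebellum, with miR-124-3p at -0.0364, miR-128-3p at -0.20 and miR-138-5p at 0.55 (unadjusted p = 0.868, 0.347 and 0.0398, edgeR). The muscle list summed to 519 ± 65.6 and 481 ± 127 CPM, with its most abundant miRNA, miR-206-3p, at -0.53 (unadjusted p = 0.0233, edgeR), a fold under 1.5, and miR-133a-3p at 0.16 (unadjusted p = 0.731). The choroid plexus and ciliated cell list summed to 5209 ± 3107 CPM in sham and 3076 ± 562 in HIBI pups, with none of the 3 tested members counted. Sham pups 2, 3, 6 and 8 had 9657, 4387, 2415 and 4376 CPM of it, and HIBI pups 1, 4, 5 and 7 had 3092, 2682, 2665 and 3866. The groups overlapped, and the highest sum was in pup 2, the sham library with the lowest miR-29a-3p (259 CPM). Other lists had higher means in HIBI, as miR-29a-3p had, with none of their tested members counted. The mural and mesenchymal list summed to 3353 ± 618 CPM in sham and 4242 ± 1259 in HIBI pups, the myeloid list to 563 ± 145 and 748 ± 192, and the endothelial list to 2950 ± 927 and 3690 ± 1073. The myeloid miR-146a-5p was at 0.52 (unadjusted p = 0.0708, edgeR). Sham and HIBI libraries overlapped in each of these sums, and pup 2 had the lowest mural and mesenchymal (2690 CPM) and endothelial (2112 CPM) sums of the 8 libraries. The oligodendrocyte list had 6257 ± 768 and 6258 ± 1518 CPM. In the striatum/thalamus, where miR-29a-3p differed by 0.10, the mesenchymal miR-214-3p was higher by 1.30 (unadjusted p = 0.0110, edgeR). There 1 of the 22 markers tested met the criteria, against 2.75% of all miRNAs. In the cortex 0 of the 21 tested did, against 3.41% of all. These counts are no result about the markers either. The part of these cell types in the miR-29a-3p difference of the cerebellum was not tested.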

How the data were processed

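The authors aligned reads to mature mouse miRNAs of miRBase with bowtie2 and deposited raw counts per miRNA, library and region. The versions, the miRBase release and the rule for reads with several matches are not given in the sources used here. The deposited tables also hold the authors' edgeR log2 fold changes, log2 CPM, p-values and false discovery rates, none of which was used. The 20 castor bean entries (84 counts) were left out. Counts were fitted with edgeR 4.0.16 in R 4.3.3, with TMM normalization and an average above 10 CPM. DESeq2 1.42.0 was an alternative. Exact permutation tests were two-sided, in SciPy 1.17.1. Named miRNAs were the family, those most correlated with each guide strand, and fixed lists. The members and lists were chosen with earlier results of these data known. The code was tested on simulated data. A replicate is 1 pup. Since each pup gave 3 regions, the libraries are paired by pup, and deviations from group means had a median correlation over 435 miRNAs of 0.27 between cortex and cerebellum, 0.16 between striatum/thalamus and cerebellum, and 0.19 between cortex and striatum/thalamus. All pairs of replicates differed beyond the sampling noise. Alternatives were other scalings, minimums, tests, a pup block and leaving out each pup. The planned ratio with miR-29a-5p was not analysed here.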

Additional observations from a re-analysis of the deposited data

Results flagged for a closer look

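MiR-29b-1-5p had 1 library apart from the other 3 in sham cerebellum (0.868 CPM in pup 2, from 2 reads) and in HIBI cortex (0.985 CPM, from 2 reads), and in both groups the others were at 0, so that the gap divided by the range was 1. These were 2 of 36 groups of 4 examined. Chance flags about 1 in 20 groups of continuous values, but that rate does not apply here, since with 3 libraries at 0 any read in the fourth gives a gap over range of 1.

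Every HIBI pup was above the sham mean of miR-29a-3p, taken on log2(CPM + 1), in the cerebellum and below it in the cortex. The tested difference of the injury effect, mean of striatum/thalamus and cortex minus cerebellum, was -0.57 on the log2 scale (adjusted p = 0.310, edgeR's quasi-likelihood test), and cerebellum against cortex alone was not tested. MiR-29b-2-5p was above this sham mean in every HIBI pup in the striatum/thalamus and below it in every HIBI pup in the cortex, a difference that was not tested. Its mean of striatum/thalamus and cortex minus cerebellum was -0.38 (adjusted p = 0.613, edgeR).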

How the results depend on the processing

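Besides leaving out pups, 267 values were recomputed for 57 differences and ratios, and 242 kept their direction and side of the threshold. Of 85 recomputed values of 12 counts of calls, 76 stayed within 1.5 times, a range that includes 51 (library size only) and 46 (upper quartile) against 34 in the cerebellar injury contrast. The sham and HIBI differences of miR-29a-3p between cortex and cerebellum kept both under all alternatives run. With an average above 1 CPM, 61 (cerebellum), 19 (striatum/thalamus) and 41 (cortex) miRNAs met the injury criteria, and with no minimum 106, 54 and 86, with more miRNAs tested. DESeq2's Wald test gave 19 in the striatum/thalamus. The test of the injury effect between regions passed 10 with no minimum. MiR-29a-3p met the injury criteria in the cerebellum with library size only (0.73) and above 1 CPM (0.59). Its step from sham cerebellum to striatum/thalamus lost its call above 1 CPM (0.57) and with no minimum (0.56), and that from HIBI striatum/thalamus to cortex with library size only (0.62). Library size only moved the median of all miRNAs by 0.16 in the cerebellar injury contrast (80.4% of calls higher, against 47.1%), -0.14 in HIBI cortex against cerebellum (34.2% against 45.2%), -0.11 in HIBI striatum/thalamus against cerebellum and -0.19 in the difference of injury effects. Upper quartile scaling moved it by -0.13 in the cerebellar injury contrast (15.2% higher) and by 0.11 in HIBI cortex against striatum/thalamus. With the pup as a replicate block the calls of miR-29b-2-5p between striatum/thalamus and cerebellum were lost in sham (0.78) and HIBI pups (0.79), and no other call of the family changed.

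Ratios at few reads depended on the added count. Since miR-29b-3p had at most 18 reads in a library, 10 added reads make up much of its side of the ratio, which then follows the reads of miR-29a-3p and is no longer free of depth. Under this setting 2 passed between regions, and nothing is read from them: miR-29b-3p to miR-29a-3p was -1.28 for cortex minus cerebellum and -1.20 for cortex minus striatum/thalamus (both adjusted p = 0.0352, exact permutation test). With 10 added, the sign turned for miR-29b-3p to miR-29a-3p in striatum/thalamus minus cerebellum (-0.0787) and HIBI minus sham cerebellum (-0.0681), for miR-29c-3p to miR-29a-3p in cortex minus cerebellum (-0.62), cortex minus striatum/thalamus (-0.30) and HIBI minus sham cerebellum (-0.16), and for miR-29c-5p to miR-29c-3p in cortex minus striatum/thalamus (-0.64) and HIBI minus sham cerebellum (-0.18). With 1 added it turned for miR-29c-3p to miR-29a-3p in cortex minus cerebellum (-0.0658) and for miR-29c-5p to miR-29c-3p in cortex minus striatum/thalamus (-0.29) and HIBI minus sham cerebellum (-0.0848). The cause of the other changes was not tested.

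With each pup left out in turn, injury counts ran from 18 (without pup 2) to 82 (without pup 6) in the cerebellum and from 5 (pup 3) to 38 (pup 5) in the striatum/thalamus, and counts between cortex and striatum/thalamus from 77 (pup 8) to 166 in sham and from 97 (pup 7) to 164 in HIBI pups. MiR-29a-3p ran from 0.36 to 0.74 in the cerebellar injury contrast, from -0.0783 (without pup 5) to 0.32 in that of the striatum/thalamus, from -0.26 to -0.0965 in that of the cortex, from 0.41 to 0.81 in sham striatum/thalamus against cerebellum and from 0.59 to 0.79 in HIBI cortex against striatum/thalamus. In the cortical injury contrast miR-29c-3p ran from 0.20 to 1.14 and miR-29b-2-5p from -0.68 to -0.32. MiR-29b-2-5p ran from 0.0579 (without pup 2) to 0.35 (without pup 4) in the cerebellar injury contrast. It ran from -0.11 to 0.23 in the striatum/thalamus injury contrast (-0.0893 to 0.42 as a difference of mean log2(CPM + 1)) and from -0.36 to 0.0983 in HIBI cortex against striatum/thalamus. As differences of mean log2(CPM + 1), miR-29c-5p ran from -0.12 to 0.67 in the striatum/thalamus and miR-29b-1-5p from -0.0446 to 0.31 in the cerebellum. The ratio of miR-29b-3p to miR-29a-3p ran from -0.63 to 0.0229 in cortex minus cerebellum. That of miR-29c-3p to miR-29a-3p ran from -0.16 to 0.26 in cortex minus cerebellum, -0.0165 to 0.54 in cortex minus striatum/thalamus, -0.46 to 0.0437 in striatum/thalamus minus cerebellum and -0.17 to 0.67 in HIBI minus sham striatum/thalamus. That of miR-29c-5p to miR-29c-3p ran from -0.76 to 0.0935 in cortex minus cerebellum, -0.36 to 0.34 in cortex minus striatum/thalamus, -0.77 to 0.91 in HIBI minus sham cerebellum and -0.50 to 0.99 in HIBI minus sham striatum/thalamus. Few reads limit every statement on miR-29b-3p, miR-29c-3p, miR-29c-5p and miR-29b-1-5p.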
